A study of Mus musculus with 8 samples.

Results

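Potassium channel genes were taken as the autosomal protein-coding genes whose symbol starts with Kcn, without Kcnq1, in the RefSeq annotation of the mouse mm10 genome. That rule gave 91 genes among 21887 protein-coding genes, of which 20665 are autosomal. Of 94 protein-coding Kcn symbols, the 2 X-linked ones were left out along with Kcnq1. The measure was the percent of each gene's ends, and of its body from annotated start to end, that lay inside deposited peaks of H3K27me3, the trimethylation of lysine 27 on histone H3. The ends were windows of 2.5 kb on either side of each annotated end, so an end cover of 50% can mean that the window at one end was filled and the other was bare.

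Peak lists from chromatin immunoprecipitation and sequencing were compared between 2 libraries of Smchd1 del/del neural stem cells and 2 libraries of Smchd1 del/fl cells. All cells were female, on a mixed C57BL/6, 129 and Castaneus background, and came from neural stem cell lines made from Smchd1 del/fl embryos at E14.5. In both genotypes the maternal X chromosome was of 129 origin with an Xist deltaA allele, and the paternal X chromosome was Castaneus. The del/del cells had received the retrovirus MSCV-Cre-puro, were selected with puromycin from 24 hours after transduction and were harvested at day 7, whereas the del/fl cells were kept untransduced, so deletion of Smchd1 and transduction with selection cannot be told apart. Smchd1 encodes a chromatin protein of the SMC family with roles in X inactivation and imprinting, and both genotypes already carry 1 deleted allele of it.

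Potassium channels let potassium ions leave or enter cells and so set the resting potential, the repolarization after an action potential and the firing pattern of neurons. Voltage-gated pore subunits open on depolarization, modifier subunits are silent alone and change the channels they join, inward rectifiers and K2P leak channels hold the resting potential, calcium- and sodium-activated channels follow ion entry, and auxiliary subunits alter gating or surface expression. H3K27me3 is laid down by Polycomb repressive complex 2, typically over promoters of developmental and lineage genes that are silent in the cell at hand. In neural stem cells many genes for mature neuronal function are held in that state.

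Promoters are printed for the 3 members with the highest end cover and the 3 longest with none, among members that have a promoter sequence within the 2.5 kb window of the annotated start, to show the DNA under filled and bare windows. Each runs from 250 bases before to 50 bases after the RefSeq start (GRCm38.p6, the mm10 build), on the strand of the gene, with CG dinucleotides in capitals. The Kcna7 promoter lies at chr7:45405710-45406009 on the plus strand, the Kcnk15 promoter at chr2:163853500-163853799 on the plus strand and the Kcnk12 promoter at chr17:87797945-87798244 on the minus strand. All 3 were 100% inside peaks in every library. The bare ones are Kcnq5 at chr1:21962601-21962900 on the minus strand, Kcnd2 at chr6:21215096-21215395 on the plus strand and Kcnt2 at chr1:140245468-140245767 on the plus strand.
Kcna7: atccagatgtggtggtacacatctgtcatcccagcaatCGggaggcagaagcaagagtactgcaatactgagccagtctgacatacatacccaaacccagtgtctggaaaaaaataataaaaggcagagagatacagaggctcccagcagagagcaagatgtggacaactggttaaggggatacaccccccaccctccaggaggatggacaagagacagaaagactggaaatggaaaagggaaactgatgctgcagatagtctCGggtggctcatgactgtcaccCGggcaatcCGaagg
Kcnk15: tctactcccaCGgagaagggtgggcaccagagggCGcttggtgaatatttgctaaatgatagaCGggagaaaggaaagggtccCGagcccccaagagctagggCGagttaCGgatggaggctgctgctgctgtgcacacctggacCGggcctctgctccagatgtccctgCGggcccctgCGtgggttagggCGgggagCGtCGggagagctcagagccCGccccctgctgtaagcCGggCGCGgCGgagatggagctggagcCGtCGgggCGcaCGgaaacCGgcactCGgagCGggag
Kcnk12: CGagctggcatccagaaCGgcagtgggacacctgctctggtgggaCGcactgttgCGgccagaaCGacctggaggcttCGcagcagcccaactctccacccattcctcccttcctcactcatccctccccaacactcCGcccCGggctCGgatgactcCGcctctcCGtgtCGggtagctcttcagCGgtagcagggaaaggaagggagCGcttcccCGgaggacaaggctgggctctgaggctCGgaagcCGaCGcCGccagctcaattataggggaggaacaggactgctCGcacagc
Kcnq5: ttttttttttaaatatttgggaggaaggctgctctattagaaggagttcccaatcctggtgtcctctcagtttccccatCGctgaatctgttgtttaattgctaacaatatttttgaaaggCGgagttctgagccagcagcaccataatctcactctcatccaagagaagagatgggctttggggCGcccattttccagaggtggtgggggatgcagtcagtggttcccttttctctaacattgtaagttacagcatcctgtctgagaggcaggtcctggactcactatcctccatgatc
Kcnd2: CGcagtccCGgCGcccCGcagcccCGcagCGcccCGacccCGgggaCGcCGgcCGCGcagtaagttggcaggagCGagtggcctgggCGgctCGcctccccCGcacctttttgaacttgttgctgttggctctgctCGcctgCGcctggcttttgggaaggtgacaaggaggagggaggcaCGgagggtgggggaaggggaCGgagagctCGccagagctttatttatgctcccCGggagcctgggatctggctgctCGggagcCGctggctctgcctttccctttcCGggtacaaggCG
Kcnt2: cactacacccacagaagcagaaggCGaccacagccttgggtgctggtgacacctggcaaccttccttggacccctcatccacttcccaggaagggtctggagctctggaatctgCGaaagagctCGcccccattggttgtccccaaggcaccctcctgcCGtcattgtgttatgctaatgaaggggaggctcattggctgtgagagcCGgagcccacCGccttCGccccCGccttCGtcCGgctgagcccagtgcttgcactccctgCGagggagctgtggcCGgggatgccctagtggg
The filled Kcna7 promoter holds 4 CG dinucleotides, while the filled Kcnk15 and Kcnk12 promoters hold 24 and 20. Among the bare ones, Kcnd2 holds 26, Kcnt2 holds 12 and Kcnq5 holds 3. CG-dense and CG-poor promoters thus stood on both sides.

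A like mixture was seen over the 60 members with such a promoter, sorted here by peaks in the start window. That window can hold a peak that misses the promoter. Kcnma1, Kcnh1 and Kcnc2 had start-window peaks in all 4 libraries, with 0% of the promoter covered in each. The counts below therefore do not compare covered with bare promoter DNA. A promoter was called CpG-rich at an observed-to-expected CG ratio of at least 0.6 and a GC content of at least 50%. Of the 24 promoters whose start window had a peak in all 4 libraries, 9 were CpG-rich (37.5%), and of the 28 whose start window was bare in every library, 9 were (32.1%). Across these 60 genes, which share libraries and are not independent replicates, the ratio and the start-window cover had a Pearson r of 0.185 and a Spearman rho of 0.156. CpG-rich promoters made up 31.7% of the 60, against 48.1% of 15385 autosomal genes measured the same way.

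The ChIP libraries held 14064030 and 12819919 tags in del/del and 13288499 and 11793402 tags in del/fl, with 32971 and 39982 peaks against 36934 and 45566. Replicate 2 of each genotype had fewer tags but more peaks. Smchd1 itself held no peak at its ends in any library, so the lists do not check its deletion. Among markers, 1 of 12 neural stem cell genes had an end peak in any library, namely Pax6 with end cover of 9.01% and 16.7% in the del/del libraries, against 8.70% and 22.1% in the del/fl libraries. End peaks in all 4 libraries were found at 7 of 10 neuron markers, at Gfap among 5 astrocyte markers, at Kdr among 7 mesenchymal and endothelial markers, and at 0 of 5 oligodendrocyte and 0 of 6 microglia and blood markers. Windows at 11 of the 12 neural stem cell genes were thus bare in every library, and most neuron genes were marked. Also bare in every library were 4 of 5 astrocyte, 4 of 5 oligodendrocyte and 5 of 6 microglia and blood markers. The same held for 4 of 7 mesenchymal and endothelial markers. Bare windows therefore did not set the neural stem cell genes apart. In bulk chromatin, fewer cells with the mark and less mark per cell cannot be told apart.

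Of the 91 potassium channel genes, 39 had a peak at their ends in all 4 libraries (42.9%), against 12.4% of autosomal genes. A further 39 had none in any library, 12 had one in some libraries, and Kcnj11 alone had one in both del/fl libraries and neither del/del library (1.1% of members, against 0.615% of autosomal genes). No member had one in both del/del libraries and neither del/fl library (0%, against 0.392%). Only genes with an end peak in some library can enter these 2 counts, and such genes were more frequent among members. Among genes with an end peak, the del/fl-only state was found at 1 of 52 members (1.92%), against 127 of 5229 autosomal genes. The mean end cover over all 91 genes was 13.4% and 15.1% in del/del cells and 15.4% and 17.5% in del/fl cells. In the same libraries the mean over autosomal genes was 4.35% and 5.09% in the del/del libraries, against 4.70% and 5.60% in the del/fl libraries. Channel genes were therefore more covered than the autosomal average in each of the 4 libraries, and this is a description, since members of a family are not replicates.

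Gene bodies were marked in a like share. Peaks lay inside 46 gene bodies in all 4 libraries (50.5%), against 13.3% of autosomal genes. That count takes no account of body length, and a long body can count with little cover. Mean body cover over the libraries was 0.29% at Kcnip4 (1135620 bp) and 0.93% at Kcnma1 (712823 bp), both among the 46. Kcnh5 and Kcna10 held body peaks in both del/fl libraries and neither del/del library (2.2% of members, against 0.561%), and no member did the reverse (0%, against 0.624%). Among genes with a body peak in any library, the del/fl-only state was found at 2 of 57 members (3.51%), against 116 of 5387 autosomal genes. The mean body cover was 8.20% and 9.16% in del/del cells and 9.23% and 10.8% in del/fl cells. The 12 members with end peaks in only some libraries, Kcnj11 left aside, were lightly covered, with Kcnh6 the highest at a mean of 8.52% over the libraries. Kcnrg, which encodes a regulator of channel assembly and stands outside the classes, had no end peak. A bare gene here means that no region passed the peak caller, not that the mark was absent.

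**Figure D1:**
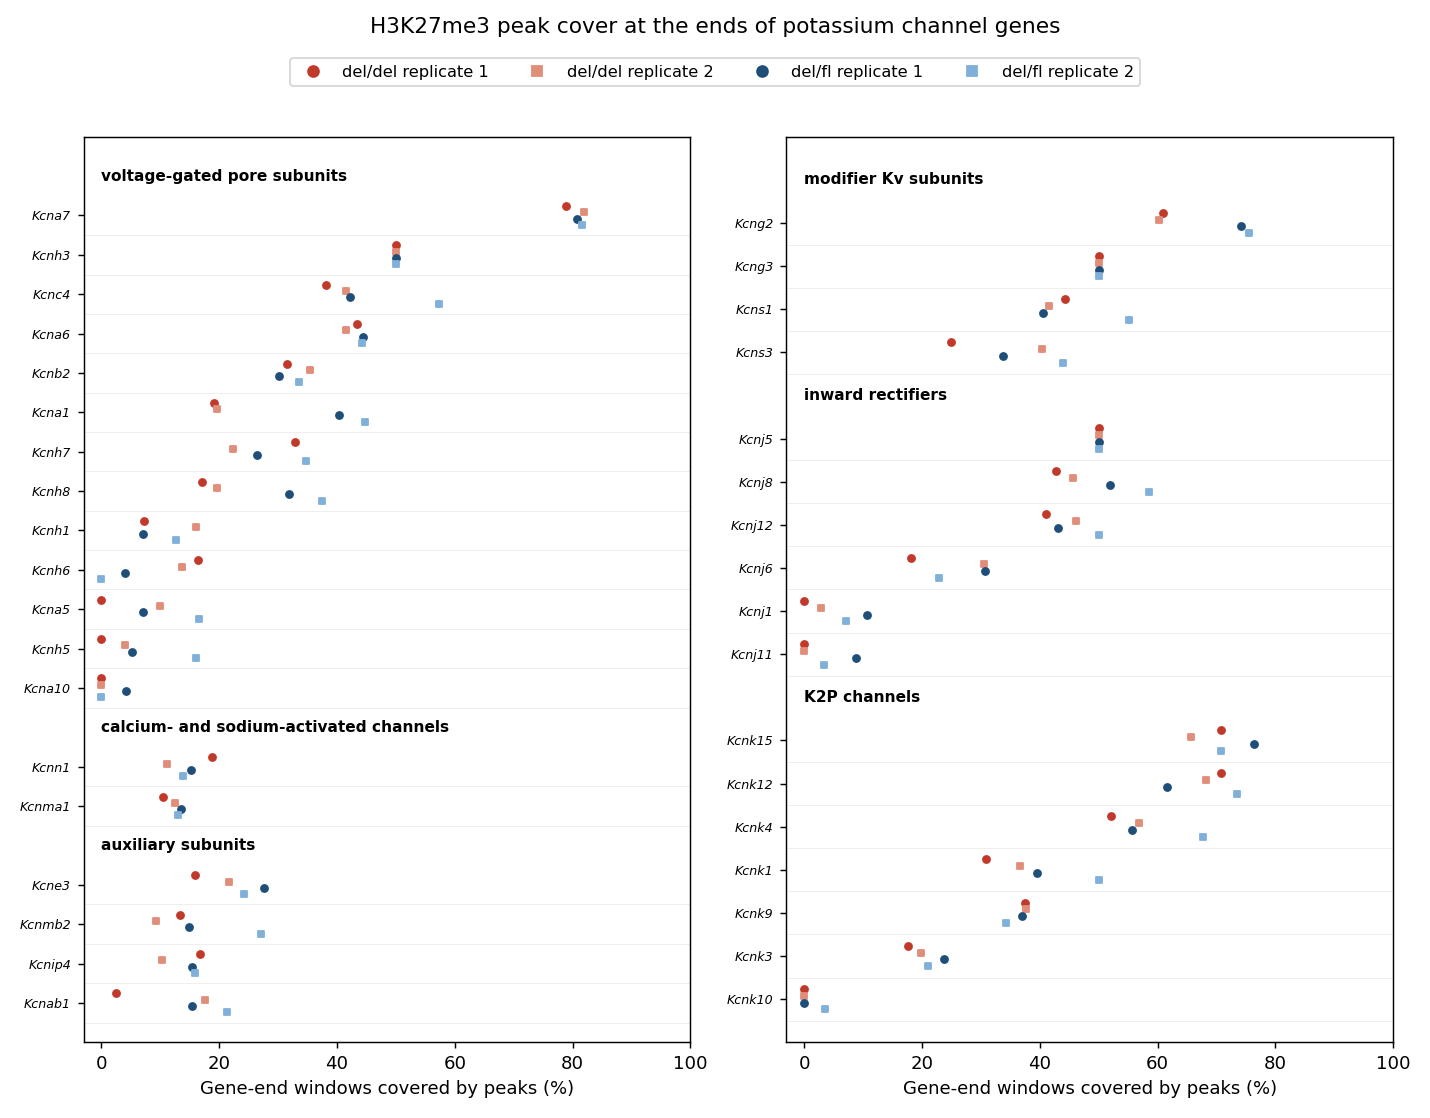
Percent of the end windows covered by H3K27me3 peaks (horizontal axis) for 36 members named in the text that had an end peak in any library, grouped by class, with 1 point per library (red for del/del, blue for del/fl). Kcna7 sits near 80% in all 4 libraries, and Kcna1 has its del/del points at 19.2% and 19.6% and its del/fl points at 40.3% and 44.7%.

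The mark sat mainly at the transcription start. Strand was known for 68 members, and in these the window around the start was covered to 21.5% and 23.6% in the del/del libraries, against 23.8% and 27.2% in the del/fl libraries. The window around the 3′ end was covered to 3.25% and 3.31% in del/del cells and 3.92% and 4.82% in del/fl cells. A start peak in all 4 libraries was present at 26 of the 68 (38.2%), against 9.99% of 16457 autosomal genes with a strand. A 3′ peak in all 4 was present at 4 of the 68 (5.88%), against 4.36% of the same genes, a share near the background. Those 4 were Kcna7, Kcnk4, Kcnk12 and Kcnk15. Kcna7 and Kcnk15 are only 5423 and 5125 bp long, so their start and 3′ windows nearly adjoin.

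Along the gene, the share of members inside a peak was highest 1.5 kb downstream of the start in both del/del libraries, at 33.8% and 35.3%. In del/fl the highest shares were 33.8% at 1 kb and 38.2% at 2 kb downstream. The autosomal genes reached at most 6.64% and 7.63% in the del/del libraries, against 7.09% and 8.26% in the del/fl libraries. Of the 68 members, 33 were more covered at the start and 4 at the 3′ end. Start windows were filled to 90% or more on average at Kcng3, Kcnj5, Kcnk12, Kcnk15, Kcnj8 and Kcnj12. Of the 23 members without a strand, 15 had an end peak, 8 of them at 1 end only.

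**Figure D2:**
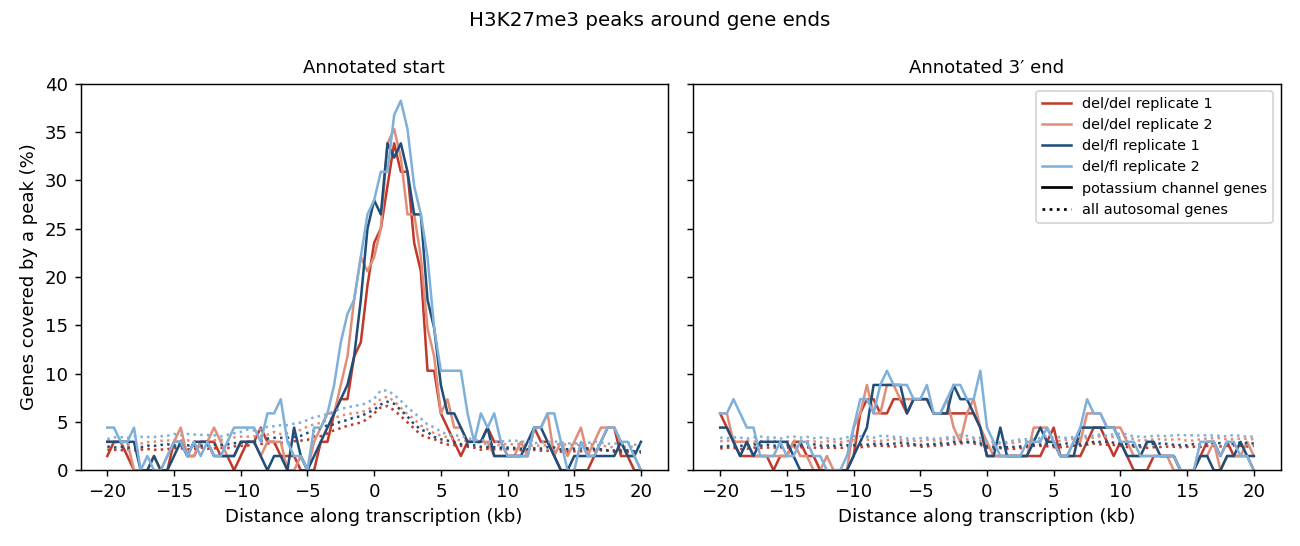
Percent of genes lying inside a peak by distance in kb from the annotated start and 3′ end, for the 68 potassium channel genes with a strand and for autosomal genes, with 1 line per library (red for del/del, blue for del/fl), solid for channel genes and dotted for autosomal genes. The channel lines reach 33.8% to 38.2% at 1 to 2 kb downstream of the start and stay at or below 10.3% around the 3′ end.

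Peaks that overlapped were merged into regions, of which 45 at 40 members had peaks from all 4 libraries. They measured 1320 to 14971 bp, with a median of 4563 bp. The longest, chr7:45405275-45420245 in mm10, covered the whole of Kcna7, a voltage-gated channel gene of the Shaker family, and reached over the neighbouring Ntf5 and Lhb. The next were an 11347 bp region at Kcnh3 (chr15:99219622-99230968) and a 10009 bp region at Kcng2. Kcna7 and Kcnh3 are voltage-gated pore genes, and Kcng2 is a modifier subunit gene.

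The authors' fold enrichment of the strongest end peak, a ratio of pileup to local background in the deposited lists, was set against that of all peaks in each list. Over the 39 members marked in all 4 libraries its median was 4.51 and 4.62 in del/del cells and 5.14 and 4.76 in del/fl cells. The medians of all peaks were 3.39 and 3.02 in the del/del libraries, against 3.37 and 3.14 in the del/fl libraries. Of the 39, the strongest peak was in the top 5% of its list for 19 and 22 in del/del cells and 23 and 26 in del/fl cells. These are the strongest peaks of genes chosen for peaks in every library, set against all single peaks. A high rank is therefore partly built in. Other genes marked in all 4 libraries were not ranked in this way, so the ranks do not set channel genes apart. Kcnk9, a leak channel of the TASK group that is imprinted in mouse brain, had the highest fold in every library but del/fl replicate 1, where Kcnh3 was at 10.3. The Kcnk9 fold was 11.7 and 12.6 in the del/del libraries, against 10.1 and 12.2 in the del/fl libraries. Its region, chr15:72543668-72549877, covered the high-coordinate end of the gene and left the other end bare.

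Channel classes differed in how many members were marked. End peaks in all 4 libraries were present at 7 of 10 modifier subunits, 8 of 14 K2P channels, 14 of 28 voltage-gated pore subunits, 4 of 15 inward rectifiers, 4 of 15 auxiliary subunits and 2 of 8 calcium- and sodium-activated channels. The mean end cover over the 4 libraries ran from 26.8% for modifier subunits, 23.8% for K2P channels, 18.3% for voltage-gated pores and 12.2% for inward rectifiers down to 4.83% for auxiliary subunits and 3.39% for calcium- and sodium-activated channels. Differences between classes were not tested, because genes are not replicates. In each library the modifier subunits, K2P channels and voltage-gated pores all lay above the inward rectifiers, which lay above the auxiliary and the calcium- and sodium-activated classes. Neighbours in that order that changed places between libraries were the calcium- and sodium-activated and auxiliary classes, at 3.66% against 3.61% in del/del replicate 1. The order depends on the peak threshold: with strict peaks, those with a deposited −log10 q of at least 5, inward rectifiers (9.49%) lay above voltage-gated pores (7.90%) and K2P channels (17.6%) above modifier subunits (16.3%).

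**Figure D3:**
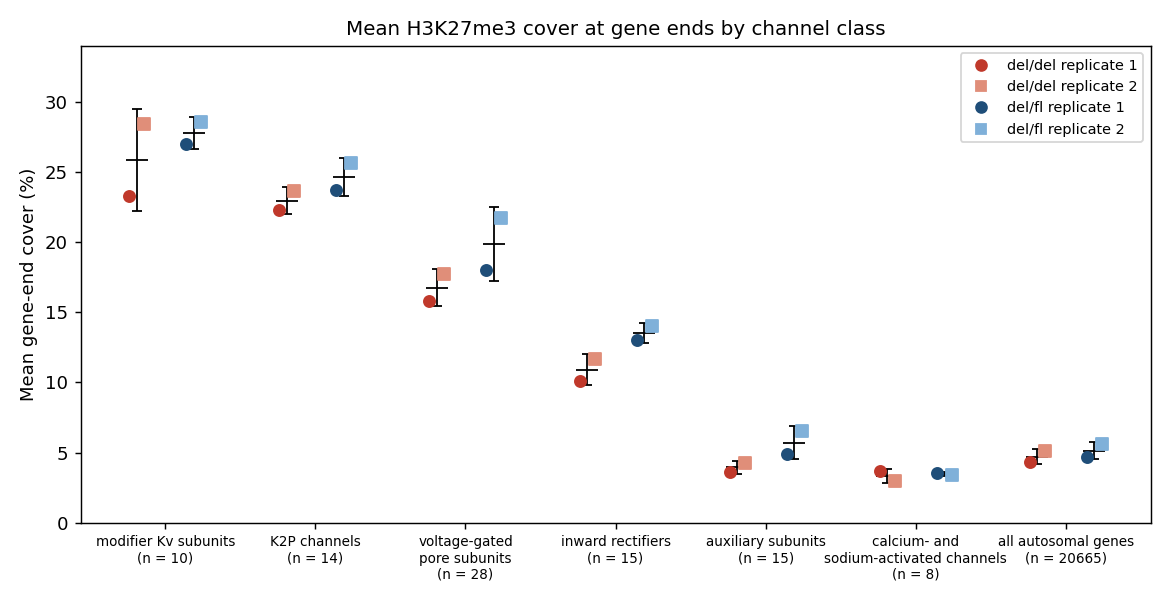
Mean end cover in percent for each channel class, and for all autosomal genes, with 1 point per library, del/del left of del/fl, and black bars for the genotype mean and SD (n = 2 each). Modifier subunits lie at 23.3% and 28.5% in del/del cells and 26.98% and 28.6% in del/fl cells, and calcium- and sodium-activated channels lie at 3.66% and 2.96% in the del/del libraries, against 3.58% and 3.37% in the del/fl libraries.

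Voltage-gated pore subunits split by subfamily. All 4 libraries had end peaks at 3 of 4 Kcnc, 3 of 4 Kcnq, 4 of 8 Kcnh, 1 of 2 Kcnb and 3 of 8 Kcna genes. No library had one at either Kcnd gene. The mean end cover over the libraries was 25.0% for Kcnc, 20.9% for Kcna, 20.2% for Kcnq, 16.8% for Kcnb and 16.4% for Kcnh. Kcna7 had the highest end cover of all members, with 78.9% and 81.8% in del/del cells and 80.7% and 81.6% in del/fl cells, and its body was 100% covered in every library. The genotypes overlapped at Kcna7.

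Kcnh3, an ether-a-go-go family channel of forebrain neurons, had 50% in every library, with the low-coordinate end filled and the other bare. Kcnc4, a fast channel of the Shaw family, had 38.1% and 41.5% in del/del cells and 42.2% and 57.4% in del/fl cells. Every del/del value at Kcnc4 was below both del/fl values. Kcnb2 and Kcnh7, a slow delayed rectifier and an ether-a-go-go related channel of neurons, averaged 32.7% and 29.1% over the libraries, and their genotypes overlapped.

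Unmarked voltage-gated genes were named as well. No end peak was found in any library at Kcna2, Kcna3, Kcnc1, Kcnd2, Kcnd3, Kcnh2, Kcnh4 and Kcnq5. Kcnd2 and Kcnd3 encode pores of the fast-inactivating A-type current in neurons and heart. Kcnh2 encodes a pore of the rapid delayed rectifier of the heart.

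Genomic neighbours did not share one state. In the chromosome 6 cluster the mean end cover over the libraries was 8.39% at Kcna5, 30.9% at Kcna1 and 43.4% at Kcna6. On chromosome 3, Kcnc4 had 44.8% and Kcna10 had 1.05%, while Kcna2 and Kcna3 were bare. On chromosome 9, Kcnj5 had 50% and its neighbour Kcnj1 had 5.17%. The pairs Kcnj9 with Kcnj10, Kcnj2 with Kcnj16 and Kcnk5 with Kcnk16 were bare at both genes.

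Modifier subunits were marked in whole subfamilies. All 4 Kcng genes and all 3 Kcns genes had end peaks in all 4 libraries, with mean end cover of 37.9% and 39.0%, whereas Kcnf1, Kcnv1 and Kcnv2 had none in any. Kcng2 had 61.0% and 60.3% in the del/del libraries, against 74.2% and 75.5% in the del/fl libraries. Kcng3 had 50% in every library, all of it at the start. Kcns1, a modifier known in sensory neurons, had end cover of 44.3% and 41.5% in del/del cells and 40.6% and 55.1% in del/fl cells. Its body was covered to 66.2% and 64.9% in the del/del libraries, against 67.6% and 73.4% in the del/fl libraries, the largest excess of body over end cover among the members. Kcns3 had end cover of 25.0% and 40.5% in del/del cells and 33.8% and 43.9% in del/fl cells, so the genotypes overlapped. Kcnv2 is known as a photoreceptor channel gene.

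K2P channels carried 3 of the 4 members with a 3′ peak in all 4 libraries. At the short Kcnk15 gene, 1 merged region of 9698 bp (chr2:163848909-163858606) reached from the start into the 3′ window. Kcnk4 and Kcnk12 had a separate 3′ region. Kcnk15 had end cover of 70.8% and 65.7% in the del/del libraries, against 76.3% and 70.7% in the del/fl libraries. Kcnk12 had 70.7% and 68.2% in del/del cells and 61.6% and 73.5% in del/fl cells. Kcnk12 was also the member whose ends most exceeded its body, which was covered to 14.4% on average over the libraries. Kcnk4, a mechanosensitive and lipid-sensitive leak channel, had 52.1% and 56.8% in the del/del libraries, against 55.7% and 67.8% in the del/fl libraries. Its 3′ region, chr19:6925055-6928496, also overlapped Catsperz.

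Kcnk1, a weak inward-rectifying leak channel, had 30.8% and 36.6% in del/del cells and 39.6% and 50% in del/fl cells. At Kcnk1 the genotypes did not overlap. Kcnk2 and Kcnk5, a mechanosensitive and a pH-sensitive leak channel, had no end peak in any library, nor did Kcnk7, Kcnk16 and Kcnk18. Kcnk2 and Kcnk5 are the longest of these 5.

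Inward rectifiers were marked at Kcnj5, Kcnj6, Kcnj8 and Kcnj12 in all 4 libraries. Kcnj5, a G-protein-gated pore of the heart, had 50% in each library, all at the start. Kcnj8, a pore of ATP-sensitive channels in vascular muscle, had 42.8% and 45.7% in the del/del libraries, against 51.9% and 58.6% in the del/fl libraries. Kcnj12, a strong rectifier, had 41.0% and 46.1% in del/del cells and 43.0% and 50% in del/fl cells. Kcnj6, a G-protein-gated pore of neurons, had 18.1% and 30.6% in the del/del libraries, against 30.8% and 22.8% in the del/fl libraries.

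The genotypes overlapped at Kcnj6 and Kcnj12 and were apart at Kcnj8. Kcnj10, the main glial rectifier, and its partner Kcnj16 had no end peak, nor did Kcnj2, Kcnj3, Kcnj9, Kcnj13 and Kcnj14. At Kcnj3 the body held peaks away from its ends, at 3.37% and 5.29% in del/del cells and 3.63% and 4% in del/fl cells. Kcnj11, the pore of ATP-sensitive channels in pancreatic beta cells, had end cover of 0% in both del/del libraries and 8.90% and 3.36% in del/fl.

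Calcium- and sodium-activated channels were marked at the ends of Kcnn1 and Kcnma1 alone. Kcnn1, a small-conductance calcium-activated channel, had 18.9% and 11.2% in the del/del libraries, against 15.2% and 13.9% in the del/fl libraries. Kcnma1, the large-conductance calcium-activated channel, had 10.4% and 12.5% in del/del cells and 13.5% and 13.1% in del/fl cells. Kcnn2, Kcnn3, Kcnn4, Kcnt1, Kcnt2 and Kcnu1 had none at their ends, and 5 of the 8 class members had body peaks in all 4 libraries.

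Auxiliary subunits were marked in all 4 libraries at Kcne3, Kcnmb2, Kcnip4 and Kcnab1. Kcne3, a small membrane partner of voltage-gated pores, had end cover of 15.8% and 21.6% in the del/del libraries, against 27.6% and 24.2% in the del/fl libraries. Kcnmb2, which inactivates large-conductance channels, had 13.4% and 9.31% in del/del cells and 14.96% and 27.1% in del/fl cells. Kcnip4, a calcium-binding partner of the A-type pores, had 16.7% and 10.3% in the del/del libraries, against 15.4% and 15.9% in the del/fl libraries. Kcnab1, a cytoplasmic beta subunit, had 2.44% and 17.5% in del/del cells and 15.4% and 21.3% in del/fl cells. Kcne3 and Kcnmb2 were apart between the genotypes, and Kcnip4 and Kcnab1 overlapped. Kcnab2 and Kcnip3 were the longest of the 9 unmarked auxiliary genes.

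Between the genotypes, no potassium channel gene passed limma's moderated test at an adjusted p under 0.05. That test was run on the 6063 protein-coding genes with an end peak in any library and called 0 of them (0% in each direction), with 376 genes higher and 270 lower in del/del before adjustment (p under 0.05). The 52 members in that fit held 1 gene higher and 3 lower at that unadjusted level, against 1.59% higher and 5.14% lower of 5229 autosomal genes. The count rested on single libraries: limma called 1043 genes at ends without del/fl replicate 1, 684 without del/del replicate 1, 241 without del/fl replicate 2 and 0 without del/del replicate 2. Without del/fl replicate 1, 7 of 51 members were called lower (13.7%), among them Kcna1 and Kcng2, against 16.2% of autosomal genes, so the members' share was near the background. At gene bodies limma called 0 of 6191 genes (0% in each direction), with 459 higher and 168 lower before adjustment (p under 0.05). The 57 members in the body fit held 1 gene higher and 5 lower at the unadjusted level, against 1.76% and 3.12% of 5387 autosomal genes.

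Averaged over all 91 members, end cover came to 14.3% ± 1.18 for del/del and 16.4% ± 1.45 for del/fl (SD, n = 2 each), a difference of -2.16 points. Leaving out del/fl replicate 2 gave -1.14 points, leaving out del/del replicate 1 gave -1.33 and leaving out del/fl replicate 1 gave -3.18. Both del/del libraries were below both del/fl libraries, and a two-sided exact permutation over libraries gave p = 0.333, the lowest that 2 libraries against 2 can reach. The mean over all autosomal genes differed by -0.43 points. The del/del mean was 0.87 of the del/fl mean for the channel genes and 0.92 for all autosomal genes. For bodies the means were 8.68% ± 0.68 for del/del and 9.99% ± 1.08 for del/fl (SD, n = 2 each), a difference of -1.31 points with an exact permutation p of 0.333. That difference was -2.07 without del/fl replicate 1, -0.55 without del/fl replicate 2 and -0.83 without del/del replicate 1. Whether the libraries of a genotype came from different embryos is not stated, and the p-values reflect only how far these samples differed.

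Class means were likewise compared over libraries. The difference of del/del minus del/fl was -3.09 points for voltage-gated pores, -2.62 for inward rectifiers, -1.77 for auxiliary subunits and -1.71 for K2P channels, each with an exact permutation p of 0.333. Without del/fl replicate 2 these were -1.22, -2.11, -0.95 and -0.75 points, and without del/fl replicate 1 they were -4.97, -3.13, -2.58 and -2.67 points, in the same order of classes. The difference was -1.91 points for modifier subunits (exact permutation p = 0.667), at which the genotypes overlapped, and turned to 0.67 points without del/del replicate 1. It was -0.16 points for calcium- and sodium-activated channels (exact permutation p = 1), and turned to 0.064 points with strict peaks and to 0.18 without del/del replicate 2.

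Of the 52 members with an end peak in any library, 16 had both del/del values below both del/fl values (30.8%), against 17% of autosomal genes with a peak. In the other direction there were 2 members (3.85%), against 6.16%. The del/del mean was the lower one at 37 of the 52 (71.2%), against 59% of those autosomal genes, and the higher one at 12 (23.1%), against 36.1%. A gene enters this count only through the libraries in which it has a peak, so the shares are descriptions. A gene with a peak in only 1 library cannot meet the no-overlap rule. Peaks in all 4 libraries were present at 39 of the 52 members, against 2562 of the 5229 autosomal genes. The no-overlap shares of members and autosomal genes thus rest on unlike sets. The median difference over the 52 was -2.69 points, and over all autosomal genes with a peak it was -0.985 points. At bodies, with the same limit, 18 of 57 members were lower without overlap (31.6%), against 15.9%. There, 4 were higher (7.02%), against 6.79%, a share near the background.

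**Figure D4:**
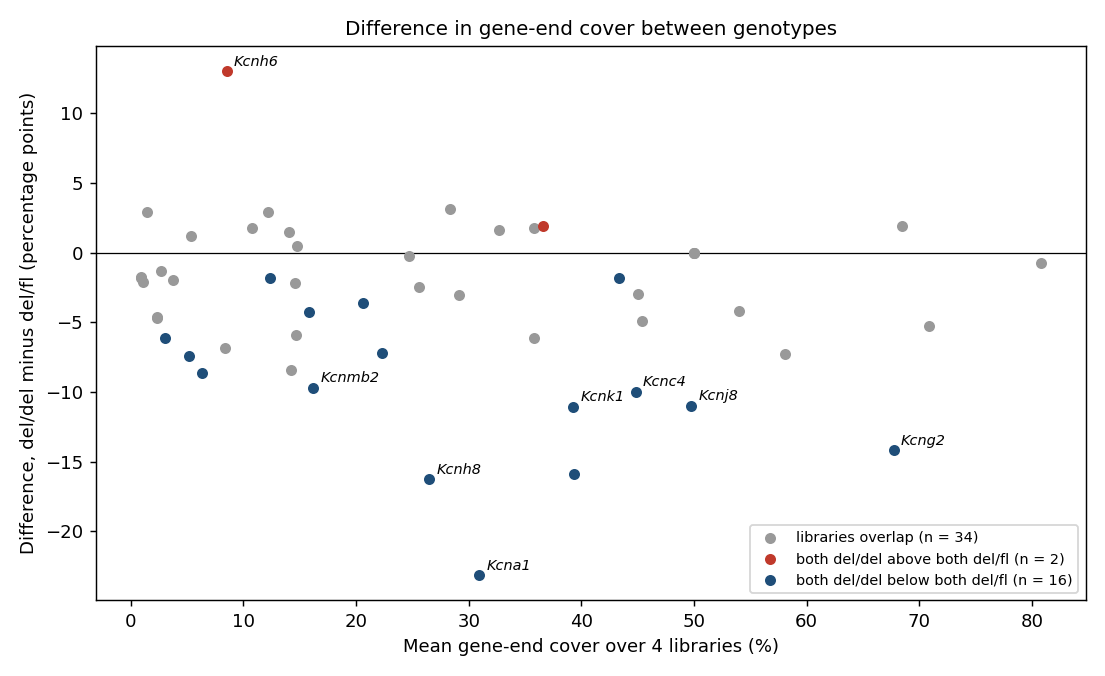
Difference in end cover, del/del minus del/fl, in percentage points (vertical axis) against the mean end cover over the 4 libraries in percent (horizontal axis), with 1 point for each of the 52 members with an end peak, coloured where the libraries of the genotypes did not overlap. The differences reach -23.1 points at Kcna1 and 13.0 points at Kcnh6, and 37 of the 52 lie below 0.

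Kcna1, the axonal voltage-gated channel whose mutation causes episodic ataxia in humans, had end cover of 19.2% and 19.6% in the del/del libraries, against 40.3% and 44.7% in the del/fl libraries. Both del/del libraries were below both del/fl libraries. The difference was -23.1 points (limma standard error 2.12, unadjusted p = 0.00301, adjusted p = 0.22). Its body was covered to 18.4% and 27.1% in del/del cells and 39.4% and 47.3% in del/fl cells. The merged region at chr6:126641386-126648168 was filled to 35.7% and 45.8% in the del/del libraries, against 74.5% and 94.2% in the del/fl libraries. Less of the region was thus inside peaks in del/del, and peaks were not absent there.

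Kcng2 differed by -14.2 points (limma standard error 1.11, unadjusted p = 0.00144, adjusted p = 0.22). Kcnh8, an ether-a-go-go family channel of the brain, had 17.1% and 19.6% in del/del cells and 31.8% and 37.5% in del/fl cells, a difference of -16.2 points (limma adjusted p = 0.286). The del/del libraries were lower without overlap at both genes, and neither passed the test.

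Kcnh6, an ether-a-go-go related channel, went the other way. It had 16.3% and 13.7% in del/del cells and 4% and 0% in del/fl cells, a difference of 13.0 points (limma adjusted p = 0.28). Its body was covered to 14.1% and 13.5% in the del/del libraries, against 13.4% and 8.56% in the del/fl libraries. Kcnk9 had end cover of 37.5% and 37.6% in del/del cells and 37.0% and 34.2% in del/fl cells, a gap of 1.94 points between the means. Both genes were higher in del/del without overlap and did not pass the test.

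Gene bodies also differed without overlap at Kcna5, Kcna10, Kcnk3, Kcnh1 and Kcnk10. Kcna5, a delayed rectifier of the atrium, had body cover of 0% and 17.1% in the del/del libraries, against 18.6% and 41.5% in the del/fl libraries. Kcna10 had 0% in both del/del libraries and 3.33% and 2.23% in del/fl. Besides Kcnh6, the bodies higher in del/del were those of Kcnk3, an acid-sensitive leak channel, with 10.7% and 11.98% in the del/del libraries, against 9.61% and 9.55% in the del/fl libraries, Kcnh1 with 1.86% and 2.55% in del/del cells and 1.41% and 1.18% in del/fl cells, and Kcnk10, a mechanosensitive leak channel, with 0.797% and 1.27% in the del/del libraries, against 0% and 0.237% in the del/fl libraries.

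Kcna6, a further Shaker family pore, was the one member called under strict peaks, 1 of 23 members fitted (4.35%), against 2.83% of autosomal genes called lower. Its end cover from strict peaks was 0% in both del/del libraries and 44.4% and 44.2% in del/fl, a difference of -44.3 points (limma adjusted p = 9.52e-05). With all deposited peaks it was 43.4% and 41.5% in del/del cells and 44.4% and 44.2% in del/fl cells, a difference of -1.84 points (limma adjusted p = 0.629). The region at chr6:126737202-126742866 was thus peaked in all 4 libraries, below the strict threshold in del/del. The −log10 q of its strongest end peak was 4.49 and 4.76 in the del/del libraries, against 5.67 and 6.48 in the del/fl libraries. These values lie on either side of the cut at 5, so the strict-peak difference and its p-value depend on where the cut was set.

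Other ion channel families gave a similar level of end cover. End peaks in all 4 libraries were present at 4 of 14 sodium channel genes, 10 of 25 calcium channel genes and 3 of 9 HCN and CNG channel genes. Their mean end cover over the libraries was 16.2%, 11.7% and 13.0%, against 15.4% for the potassium channel genes. Among 9 named partners of potassium channels, Lrrc26 and Abcc8 were marked in all 4 libraries.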

How the data were processed

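The data were H3K27me3 ChIP-seq peak lists of 2 del/del and 2 del/fl libraries, with 4 whole-cell extract libraries that served only as controls in peak calling. The submitters' processing notes name bcl2fastq and Bowtie 0.12.9, and mm10 as the build. Each library had its own broad peaks from MACS2 2.1.0.20140616 with whole-cell extract as control, a q threshold of 0.05, 1 tag kept per position, down-sampling of the larger library and local background over 1000 and 10000 bp, per the file headers. The lists hold broad regions weaker than that threshold, with q-values up to 0.0918 to 0.0983 by library, and all were used. Per peak, the authors deposited a pileup (a signal that counts overlapping tags), a fold enrichment (the ratio of pileup to local background) and the −log10 of a p-value and of a q-value. These values only filtered or ranked peaks within a list. Peak calling thresholds each library on its own, so depth and background can change how far a peak extends.

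Covered bases were counted with Python 3.11.15, numpy 2.4.6 and pandas 2.3.3, and figures drawn with matplotlib 3.10.9. Gene coordinates came from a RefSeq table of GRCm38.p6, the mm10 build, and strand came from the RefSeq promoter table, which held 68 members. Percent cover was tested with limma 3.58.1 in R 4.3.3 (variance trend, robust, Benjamini-Hochberg adjustment over all protein-coding genes with a peak in any library), and means over libraries with exact permutation tests. The counting and limma code was tested on simulated data. Members and gene lists were chosen with earlier results of these data known. Named in the text are, per class, up to 4 members with the highest end cover and 2 longest bare ones, members gained or lost, the largest differences without overlap (8 at ends and 4 at bodies per direction), the extremes of body against end cover, and members called. Results for some members are not reported here. Bare members, marker genes and genomic neighbours are also listed, by name, outside that rule. Replicate numbers were not used as pairs, because the labels do not tie a number to a line. Deviations of same-numbered libraries correlated at 0.108 over 6063 genes, in 2 pairs. A correlation across genes can miss a shift common to all genes. Replicate 2 had more autosomal peaks in both genotypes, with 26327 in del/del and 26637 in del/fl, against 17102 and 17564 in replicate 1. The low correlation therefore does not exclude a shared replicate effect.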

Additional observations from a re-analysis of the deposited data

How the results depend on the processing

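Alternatives were lists trimmed to equal length, strict peaks (a deposited −log10 q of 5 or more), windows of 1 or 5 kb, the start window alone, peaks joined over gaps up to 3 kb, a mean cover of at least 10%, autosomes alone, an arcsine scale, no variance trend, each library left out and the replicate block. The mean end and body cover of the potassium channel genes was lower in del/del under every alternative run, from -3.18 to -1.14 points at ends and from -2.07 to -0.55 at bodies with a library left out. Divided by each library's autosomal mean, a choice made after seeing the data, the end ratio was 3.09 and 2.97 in the del/del libraries, against 3.28 and 3.12 in the del/fl libraries. The count of genes called at ends was 0, and became 95 with strict peaks (56 higher, 39 lower), 17 with 1 kb windows, 57 with 5 kb windows, 10 with the start window, 29 with joined peaks and 16 at a mean cover of at least 10%. It ran from 0 to 1043 with a library left out (684 without del/del replicate 1, 1043 without del/fl replicate 1 and 241 without del/fl replicate 2), where the lone library is assumed to vary like the others. Members called at ends were 1 with strict peaks (Kcna6) and 0 to 7 with a library left out. The 7, without del/fl replicate 1, were all lower in del/del and included Kcna1, Kcng2 and Kcnj11. At bodies the count of 0 became 83 with strict peaks, 3 with equal lists, 39 with joined peaks, 2 at a mean cover of at least 10%, 1 on the arcsine scale, 7 without the trend and 0 to 741 with a library left out. Members called at bodies were 0 to 2 then, namely Kcnk9 (higher) without del/del replicate 1, and Kcna10 and Kcnu1 (lower) without del/fl replicate 1. The replicate block called 0 genes at ends and 0 at bodies. Members with end peaks in all 4 libraries were 18 with strict peaks. Members gained became 1 with 1 kb windows and 1 at a mean cover of at least 10%, and 0 to 1 with a library left out. Members lost became 2 with equal lists, 0 with the start window, 0 at a mean cover of at least 10% and 2 to 5 with a library left out. Class means with strict peaks and with 5 kb windows were 7.90% and 13.7% for voltage-gated pores, 16.3% and 21.6% for modifier subunits, 9.49% and 9.22% for inward rectifiers and 17.6% and 18.5% for K2P channels. Strict peaks thus turned the order of voltage-gated pores and inward rectifiers, and of modifier subunits and K2P channels. With strict peaks they were 1.85% for calcium- and sodium-activated channels and 1.43% for auxiliary subunits. The class difference turned sign for modifier subunits with a library left out (-4.48 to 0.67 points) and for calcium- and sodium-activated channels with strict peaks (0.064) or with a library left out (-0.51 to 0.18). The cause of these changes was not tested, except that strict peaks leave 1547 genes in the fit at ends. A fit with no filter on cover could not be fitted. With 2 libraries a group, tag number and the caller's threshold limit what a bare window can show.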
